A study of Mus musculus with 2 samples.

Results

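Type I interferon-high phagocytes were tumor mononuclear phagocytes (TMPs) in which transcripts of Ifit1, Ifit2, Ifit3, Rsad2 and Isg15 took the largest share of all transcripts. Their UMIs (unique molecular identifiers, each standing for 1 captured transcript) were summed over these 5 genes in every cell and divided by the cell's total, and cells were selected on this share: the top 5%, 718 of 14351 TMPs, are called interferon-high and the others remaining TMPs. The TMPs were sorted as MerTk+ CD64+ cells from B16 melanomas, a transplanted mouse skin tumor line, and profiled in 1 droplet library from Fcmr+/+ and 1 from Fcmr-/- mice, both C57Bl/6, the second lacking the Fc receptor for IgM. The age of the mice, and how many gave tumors to each library, are not given in the sources used here, and the deletion is not limited to phagocytes. The files held 6392 Fcmr+/+ and 8017 Fcmr-/- cells, of which 6352 and 7999 had 200 to 7000 genes and at most 30% of UMIs on mitochondrial genes, and these held 128408544 and 124630621 UMIs. Each genotype is 1 library, so how far mice of a genotype vary is not known and no test was made. Intervals, exact Poisson or Clopper-Pearson at 95%, cover counting error only.

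Type I interferons are secreted proteins that a cell makes after it senses nucleic acids of microbes, dying cells or tumors. They bind IFNAR1 and IFNAR2 on the same and neighboring cells, and the receptor's kinases activate transcription factors, IRF9 among their partners, that switch on many antiviral genes, a few of which IRF3 can also induce directly when a cell senses nucleic acids. In tumors, type I interferon made by or acting on phagocytes is known for its part in priming T cells. Of the genes used for the selection, Ifit1, Ifit2 and Ifit3 encode RNA-binding proteins that hold back translation of foreign RNA, Rsad2 encodes viperin, a radical enzyme that makes a chain-terminating nucleotide, and Isg15 encodes a ubiquitin-like protein.

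Transcription factors of the interferon response bind GAAA repeats, and promoters of selection genes and of Cxcl10 that hold one are shown to let these repeats be seen next to the values. Promoter windows from RefSeq on GRCm38.p6, 250 bases before to 50 after each start, were searched on both strands for GAAANNGAAA, where matches may overlap. Each stretch below is 80 bases, written 5′ to 3′ on the strand of the gene, with bases of a match in capitals.
Ifit1, chr19:34640769-34640848, plus strand: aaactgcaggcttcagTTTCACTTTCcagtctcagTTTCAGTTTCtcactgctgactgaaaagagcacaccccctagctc
Ifit3, chr19:34583372-34583451, plus strand: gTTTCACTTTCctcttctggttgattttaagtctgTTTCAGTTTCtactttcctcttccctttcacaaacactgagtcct
Rsad2, chr12:26456528-26456607, minus strand: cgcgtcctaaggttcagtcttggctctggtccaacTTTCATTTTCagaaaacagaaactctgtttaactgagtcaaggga
Isg15, chr4:156200840-156200919, minus strand: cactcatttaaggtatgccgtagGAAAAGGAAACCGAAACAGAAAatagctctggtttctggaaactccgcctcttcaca
Cxcl10, chr5:92349058-92349137, minus strand: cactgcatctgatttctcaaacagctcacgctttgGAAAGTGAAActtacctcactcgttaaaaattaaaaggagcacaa
Ifit1 and Ifit3 each held 2 matches, Rsad2 and Cxcl10 1, and Isg15 3 that overlapped. Neither RefSeq window of Ifit2 held these letters, nor did those of Ifnb1 and of Cmpk2, one of the 15 highest genes outside the selection. Of those 15 genes, 9 had a window, and 3 of these held the repeat. The repeat was in 3.44% of all 32851 windows. Among genes measured in both genotypes that have a window, it was in 184 of 4084 (4.51%), in 38 of 121 (31.4%) of those at least 2-fold higher in interferon-high TMPs of both genotypes, and in 2 of 21 of those at least 2-fold lower. A match describes letters only, not binding.

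Interferon-high TMPs made up 272 Fcmr+/+ cells, 4.28% of that library (interval 3.80 to 4.81), and 446 Fcmr-/- cells, 5.58% (interval 5.08 to 6.10). They carried fewer UMIs than the remaining TMPs of their library, with a median of 12111 against 18164 in Fcmr+/+ and 8658 against 13202 in Fcmr-/-. When every cell was first thinned to 6403 UMIs, which left out 72 Fcmr+/+ and 645 Fcmr-/- cells, the shares were 4.60% and 5.34%. The libraries shared 73 cell barcodes, none of them among interferon-high TMPs of both. Mitochondrial genes took a median 3.70% of UMIs in interferon-high and 4.74% in remaining Fcmr+/+ TMPs, and 2.91% and 4.12% in Fcmr-/- TMPs.

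The values that chose the cells describe a continuous range with a long upper end. An interferon-high TMP held 24 to 609 UMIs of the 5 genes in Fcmr+/+, with a median of 100, and 18 to 458 in Fcmr-/-, with a median of 67. The remaining TMPs held a median of 1 and 2, and 33.6% and 25.5% of them held none. The last cell inside the selection had 50 of 15477 UMIs, or 32.3 per 10000, and the first outside had 49 of 15210, or 32.2, so no gap separated them. The highest cell reached 482 per 10000. The curve of cells at or above each score shows no step at the lowest interferon-high score.

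**Figure D1:**
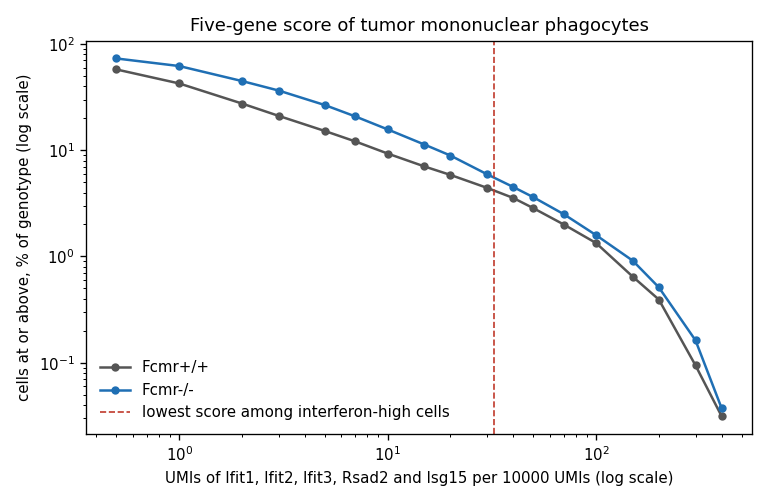
Share of the cells of each genotype (percent, log scale) at or above a given number of UMIs of the 5 genes per 10000 UMIs (log scale), with the lowest score among interferon-high TMPs as a dashed line. At 10 per 10000 the share was 9.30% in Fcmr+/+ and 15.7% in Fcmr-/-, at 100 it was 1.34% and 1.59%.

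Each of the 5 genes had at least 1 UMI in 209 of 272 Fcmr+/+ and 306 of 446 Fcmr-/- interferon-high TMPs, and none rested on a single gene. A UMI alone does not show expression, since the share that free RNA gives was not measured. Levels are given as CPM, the UMIs of a gene per 1000000 UMIs of the same group of cells. Because these genes made the selection, their values are a description. Rsad2 had 3398 CPM in interferon-high and 63.9 in remaining Fcmr+/+ TMPs, and 3667 and 107 in Fcmr-/- TMPs. It was the most counted of the 5 in 158 of 272 and 263 of 446 cells. Isg15 had 1882 CPM in interferon-high and 91.5 in remaining Fcmr+/+ TMPs, and 2409 and 188 in Fcmr-/- TMPs. Ifit1 had 1644 CPM in interferon-high and 21.4 in remaining Fcmr+/+ TMPs, and 1034 and 27.9 in Fcmr-/- TMPs. Ifit1 took 20.4% of the 5 genes' UMIs in Fcmr+/+ interferon-high TMPs and 12.5% in Fcmr-/- ones, while Isg15 took 23.4% and 29.0%. Ifit2 had 619 CPM in interferon-high and 10.6 in remaining Fcmr+/+ TMPs, and 580.3 and 19.0 in Fcmr-/- TMPs, and Ifit3 506 CPM in interferon-high and 14.1 in remaining Fcmr+/+ TMPs, and 605 and 21.2 in Fcmr-/- TMPs. Reads of Ifit3 and its near-identical neighbor Ifit3b may have been split or dropped in counting.

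Outside the 5 genes, the cells differed from the remaining TMPs in a small share of genes. Ratios are log2 ratios of interferon-high to remaining TMPs within a genotype, with 1 CPM added to both, and a gene counted as measured from 20 CPM in either group and as different from 2-fold on. Of 5465 genes in Fcmr+/+, 209 were higher (3.82%) and 52 lower (0.952%), and of 5457 in Fcmr-/-, 249 were higher (4.56%) and 75 lower (1.37%). Of 5232 genes measured in both, 160 were higher in both (3.06%) and 27 lower in both (0.516%). The median over all genes was -0.15 in Fcmr+/+ and -0.14 in Fcmr-/-, and the lists below are set beside these medians. When remaining TMPs were weighted to the UMI classes of the interferon-high ones, 188 genes were higher and 25 lower in Fcmr+/+, and 201 and 25 in Fcmr-/-. With the top 2% of cells, 320 were higher and 380 lower in Fcmr+/+, so that more genes were lower than higher, and 365 and 344 in Fcmr-/-.

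Ifnb1, which encodes interferon-beta, stood first among genes outside the selection. It had 258 CPM (interval 243 to 274) in interferon-high and 1.86 CPM (interval 1.63 to 2.12) in remaining Fcmr+/+ TMPs, and 81.5 CPM (interval 73.7 to 89.9) and 0.810 CPM (interval 0.657 to 0.988) in Fcmr-/- TMPs, log2 ratios of 6.50 and 5.51. The interferon-high TMPs thus held 1092 of the Fcmr+/+ library's Ifnb1 UMIs, 82.5%, and 398 of the Fcmr-/- library's, 80.4%. Next came Cmpk2, a mitochondrial nucleotide kinase that is the genomic neighbor of Rsad2, at 242 CPM in interferon-high and 6.76 in remaining Fcmr+/+ TMPs, and 367 and 10.9 in Fcmr-/- TMPs. Mx1, of the dynamin-like GTPase family, had 186 CPM in interferon-high and 8.54 in remaining Fcmr+/+ TMPs, and 178 and 10.5 in Fcmr-/- TMPs. Cxcl10, which attracts T and NK cells through CXCR3, was the most counted gene of the 15 highest, at 1625 CPM in interferon-high and 102 in remaining Fcmr+/+ TMPs, and 1985 and 206 in Fcmr-/- TMPs. Its log2 ratio was 3.99 in Fcmr+/+ and 3.27 in Fcmr-/-. Usp18, which removes ISG15 from proteins and dampens the interferon receptor, had ratios of 3.22 and 3.41, and Herc6, the mouse ligase that attaches ISG15, 3.39 and 3.00. Isg20, an exonuclease, reached 3.31 and 3.57, Oasl1, a relative of the oligoadenylate synthetases, 3.57 and 3.03, and Slfn4 of the Schlafen family 3.02 and 3.13. The PYHIN and pyrin-domain genes Pydc3, Pydc4 and Pyhin1, the Ifit relatives Ifit3b and Ifit1bl1, and the predicted gene Gm4955 made up the rest of the 15, with ratios from 2.96 (Pyhin1 in Fcmr-/-) to 5.30 (Ifit1bl1 in Fcmr-/-). Among these relatives, close copies can share reads.

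**Figure D2:**
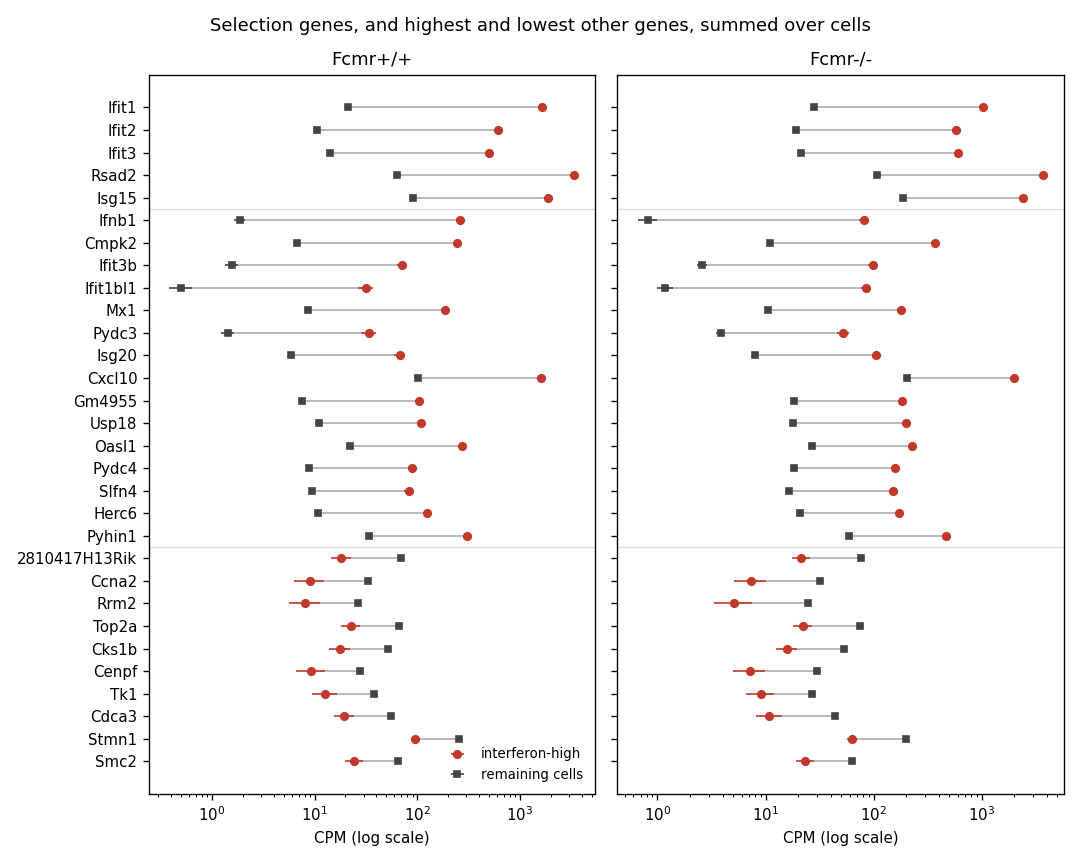
CPM (log scale) of the 5 selection genes, the 15 highest and the 10 lowest other genes in interferon-high (circles) and remaining (squares) TMPs of each genotype, with 95% Poisson intervals. Circles lie right of squares for the upper 20 genes and left for the lower 10, which take part in DNA replication and mitosis.

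The antiviral list, 79 interferon-induced genes without the 5 of the selection, was higher almost throughout, with 65 of 67 measured genes above 0 in Fcmr+/+ and 69 of 70 in Fcmr-/-. In Fcmr+/+, 52 of 67 measured genes were at least 2-fold higher and none 2-fold lower, with a median log2 ratio of 1.84. In Fcmr-/-, 57 of 70 were higher and none lower, with a median of 1.86. The 2-fold call held in both genotypes for 50 of 67 genes measured in both. The list had 77 genes in the files, so 10 in Fcmr+/+ and 7 in Fcmr-/- were too low to be measured, and without that filter the medians were 1.78 and 1.77. Irf7, the transcription factor that amplifies type I interferon production, had 296 CPM in interferon-high and 62.0 in remaining Fcmr+/+ TMPs, and 527 and 124 in Fcmr-/- TMPs. Stat2 had 76.2 CPM in interferon-high and 13.8 in remaining Fcmr+/+ TMPs, and 111 and 25.8 in Fcmr-/- TMPs. Parp14, Phf11b, Daxx and Xaf1 had ratios between 2.01 (Parp14 in Fcmr+/+) and 2.35 (Phf11b in Fcmr-/-). Some strongly counted genes of the list differed less: Ifitm3, which hinders virus entry, had 2261 CPM in interferon-high and 1254 in remaining Fcmr+/+ TMPs, and 3571 and 1739.7 in Fcmr-/- TMPs, and Ifitm2 had ratios of -0.12 and 0.055. Of 4 genes that conjugate or remove ISG15, 3 of 3 measured were 2-fold higher in Fcmr+/+ and 4 of 4 in Fcmr-/-. These counts are partly set by the filter, because a gene can pass the limit of 20 CPM through interferon-high TMPs alone. Without the filter, the 4 genes summed to 317 CPM in interferon-high and 52.4 in remaining Fcmr+/+ TMPs, and 518 and 85.3 in Fcmr-/- TMPs.

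Among nucleic acid sensors and their adaptors, the cytosolic RNA helicases stood out. Ifih1, which encodes MDA5, had 172 CPM in interferon-high and 25.6 in remaining Fcmr+/+ TMPs, and 193 and 28.5 in Fcmr-/- TMPs. Ddx58, which encodes RIG-I, had 86.4 CPM in interferon-high and 18.2 in remaining Fcmr+/+ TMPs, and 132 and 24.3 in Fcmr-/- TMPs. Dhx58, which regulates both, had ratios of 1.37 and 1.42. The DNA sensor Mb21d1, which encodes cGAS, was at 1.24 and 0.93, while Tmem173, its adaptor STING, was at -0.17 and -0.19. Endosomal Tlr7 was at -0.21 and 0.06, and Tlr13, a receptor for bacterial RNA, at -0.40 and 0.031. Over the list, 5 of 14 measured genes were 2-fold higher in Fcmr+/+ and 3 of 13 in Fcmr-/-, none was 2-fold lower, and the medians were 0.43 and 0.75. A gene can pass the limit of 20 CPM through interferon-high TMPs alone, and without that limit the medians were 0.18 and 0.33.

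The receptor genes had smaller ratios than Stat2 and Irf7. Ifnar1 and Ifnar2 had ratios of 0.19 and 0.28 in Fcmr+/+ and 0.53 and 0.48 in Fcmr-/-. Socs1, which feeds back on the receptor's kinases, had 50.4 CPM in interferon-high and 7.22 in remaining Fcmr+/+ TMPs, and 58.9 and 14.2 in Fcmr-/- TMPs. Irf3, which is switched on by phosphorylation, had 11.8 CPM in interferon-high and 19.9 in remaining Fcmr+/+ TMPs, and 19.4 and 22.2 in Fcmr-/- TMPs. Of the list, 5 of 20 genes were 2-fold higher in Fcmr+/+ and 6 of 21 in Fcmr-/-, with medians of 0.26 and 0.5. The other interferon genes were nearly absent. Of 21 interferon genes, 17 had no UMI in Fcmr+/+ and 18 none in Fcmr-/- interferon-high TMPs, and Ifng, Ifna2 and Ifna4 had at most 1.89 CPM.

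Genes best known from the response to interferon-gamma, a cytokine of T and NK cells, were higher as well. The list's median log2 ratio was 2.09 in Fcmr+/+, with 12 of 15 measured genes 2-fold higher, and 1.30 in Fcmr-/-, with 12 of 19. Of 33 genes listed, low ones such as Gbp5 passed the limit of 20 CPM through interferon-high TMPs alone, and without the limit the medians were 1.54 and 1.11. Many of these genes also respond to type I interferon. Gbp5, a guanylate-binding protein that coats vacuoles and bacteria, had 40.5 CPM in interferon-high and 2.75 in remaining Fcmr+/+ TMPs, and 59.97 and 8.07 in Fcmr-/- TMPs. Ifi47, an immunity-related GTPase, had 141 CPM in interferon-high and 19.9 in remaining Fcmr+/+ TMPs, and 265 and 57.9 in Fcmr-/- TMPs. Gbp2, of the same family as Gbp5, had 114 CPM in interferon-high and 18.3 in remaining Fcmr+/+ TMPs, and 327 and 131 in Fcmr-/- TMPs, so the remaining Fcmr-/- TMPs already exceeded the interferon-high Fcmr+/+ ones. Cxcl9, another CXCR3 ligand, had 30.3 CPM in interferon-high and 13.9 in remaining Fcmr+/+ TMPs, and 171 and 186 in Fcmr-/- TMPs. Ranked by the summed UMIs of Cxcl9 and Iigp1, the top 5% of all TMPs held 35 Fcmr+/+ and 683 Fcmr-/- cells. Of these, 6 and 37 were interferon-high: 2.21% and 8.30% of the interferon-high TMPs and 17.1% and 5.42% of the Cxcl9 and Iigp1 cells. That top class was 0.551% of all Fcmr+/+ and 8.54% of all Fcmr-/- TMPs.

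**Figure D3:**
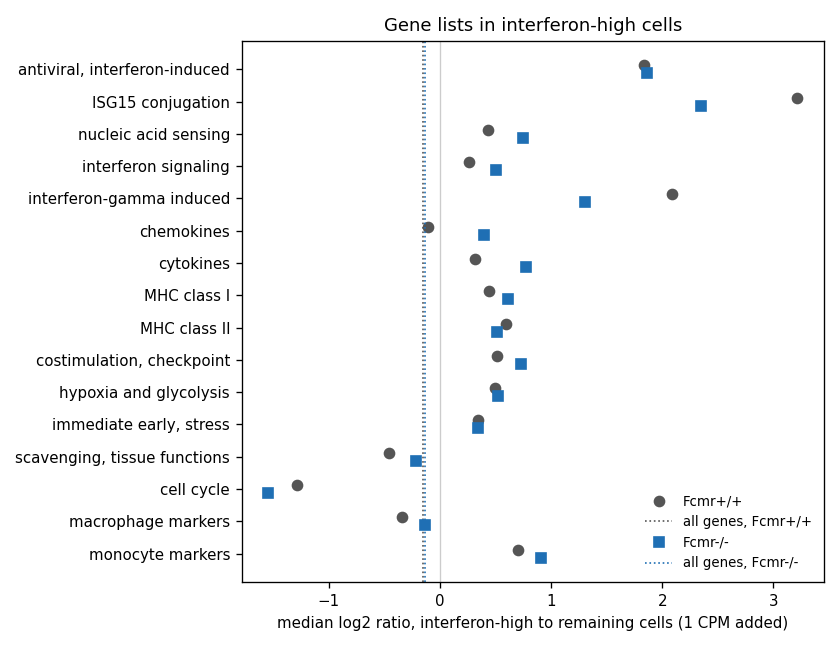
Median log2 ratio of interferon-high to remaining TMPs (1 CPM added) over the measured genes of 16 lists, by genotype, with the median over all genes as dotted lines. The antiviral list lies at 1.84 and 1.86, and the cell cycle list at -1.29 and -1.55.

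Among chemokines, Cxcl10, Ccl4 and Ccl5 were at least 2-fold higher in both genotypes, and Ccl3 and Cxcl9 in Fcmr+/+. For Cxcl9 in Fcmr+/+, 1 cell held 30.5% of the UMIs, and without Isg15 in the score its ratio was -0.079. Ccl5 had 470.2 CPM in interferon-high and 18.3 in remaining Fcmr+/+ TMPs, and 328 and 50.02 in Fcmr-/- TMPs. Ccl4 had 5883 CPM in interferon-high and 1031 in remaining Fcmr+/+ TMPs, and 3643 and 975 in Fcmr-/- TMPs, and Ccl3 had ratios of 1.03 and 0.89. The list as a whole had medians of -0.11 and 0.39, with 5 of 17 and 3 of 17 genes 2-fold higher, and without the limit of 20 CPM of -0.015 and 0.37. Other attractants were near the level of the remaining TMPs: the monocyte attractant Ccl2 was at -0.11 and 0.41, the neutrophil attractant Cxcl1 at -0.43 and -0.06. Tnfsf10, which encodes the death ligand TRAIL and was under the limit of 20 CPM, had 11.4 CPM in interferon-high and 0.837 in remaining Fcmr+/+ TMPs, and 18.8 and 1.76 in Fcmr-/- TMPs. Il15, which sustains NK and memory T cells, had 50.2 CPM in interferon-high and 18.7 in remaining Fcmr+/+ TMPs, and 62.4 and 19.5 in Fcmr-/- TMPs. Inhba, the activin A subunit, had 117 CPM in interferon-high and 23.1 in remaining Fcmr+/+ TMPs, and 285 and 82.0 in Fcmr-/- TMPs. These genes did not all lie on one side. Il1rn, which blocks interleukin-1, had ratios of 0.71 and 1.26. Il10 was at -0.84 and 0.087, and Igf1 at -0.79 and -1.17. The cytokine list had medians of 0.31 and 0.77, with 4 of 14 and 6 of 17 genes 2-fold higher and 0 and 1 lower, and without the limit of 20 CPM the medians were 0.53 and 0.79.

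Class I antigen presentation genes were moderately higher. For MHC class I, all 17 measured genes in Fcmr+/+ and all 20 in Fcmr-/- had ratios above 0, 5 and 5 were 2-fold higher, and the medians were 0.44 and 0.62. Over all genes, 33.7% and 35.2% had ratios above 0. Tap1, which pumps peptides into the endoplasmic reticulum, had 131 CPM in interferon-high and 51.0 in remaining Fcmr+/+ TMPs, and 206 and 98.4 in Fcmr-/- TMPs, and the nonclassical H2-T22 had ratios of 1.34 and 1.36. For MHC class II, H2-Aa had 1491 CPM in interferon-high and 958 in remaining Fcmr+/+ TMPs, and 1999 and 1375 in Fcmr-/- TMPs, and the 6 measured genes had medians of 0.60 and 0.51 with none 2-fold higher and 6 and 4 of them above 0. The class II medians depended on the settings: in Fcmr-/- the median was 0.20 with the top 2% of cells and 0.22 without Isg15 in the score, and in Fcmr+/+ it was 0.34 with weighting by UMI class and 0.32 as a mean over cells. Genes for checkpoint and costimulatory proteins were among the higher ones. Cd274, which encodes PD-L1, had 198 CPM in interferon-high and 58.7 in remaining Fcmr+/+ TMPs, and 276 and 102 in Fcmr-/- TMPs. The costimulatory genes Cd86 and Cd40 had ratios of 1.2 and 1.02 in Fcmr+/+ and 1.03 and 1.36 in Fcmr-/-. Cd69, an early activation marker that also keeps cells in tissue, had 45.4 CPM in interferon-high and 9.08 in remaining Fcmr+/+ TMPs, and 83.1 and 9.85 in Fcmr-/- TMPs. In that list, 4 of 11 and 5 of 13 genes were 2-fold higher, where 3.82% and 4.56% of all genes were. Its medians were 0.51 and 0.73. Here too a gene can pass the limit of 20 CPM through interferon-high TMPs alone, and without the limit the medians were 0.34 and 0.60.

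Cell cycle genes were lower, and no measured gene of that list was above 0 in either genotype. Of 18 measured genes, 14 were at least 2-fold lower in Fcmr+/+ and 14 in Fcmr-/-, 12 of them in both, with medians of -1.29 and -1.55. Top2a, the topoisomerase of dividing cells, had 22.5 CPM in interferon-high and 67.1 in remaining Fcmr+/+ TMPs, and 22.1 and 74.1 in Fcmr-/- TMPs. Ccna2, which encodes cyclin A2, had 8.99 CPM in interferon-high and 33.2 in remaining Fcmr+/+ TMPs, and 7.37 and 31.7 in Fcmr-/- TMPs. Rrm2, a subunit of the reductase that makes DNA precursors, had 8.05 CPM in interferon-high and 26.3 in remaining Fcmr+/+ TMPs, and 5.12 and 24.5 in Fcmr-/- TMPs. The 10 lowest genes outside the selection were these 3 with Cks1b, Cenpf, Tk1, Cdca3, Stmn1, Smc2 and 2810417H13Rik. A single cell held 51.3% and 48.6% of the Cenpf UMIs of interferon-high TMPs. Depth differed along with these genes, and after weighting remaining TMPs to the same UMI classes the medians of the list were -0.93 and -1.02. They were -2.62 and -2.24 with the top 2% of cells, -0.98 and -0.91 with the top 10%, -0.82 in Fcmr+/+ with cells of up to 5000 genes and -1.97 in Fcmr+/+ without cells that hold Ifnb1.

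Macrophage markers and both sort markers were present in interferon-high TMPs, and 2 monocyte markers were higher. Mertk, a receptor for dying cells used in the sort, had 49.7 CPM in interferon-high and 63.3 in remaining Fcmr+/+ TMPs, and 45.6 and 48.9 in Fcmr-/- TMPs. Fcgr1, which encodes the other sort marker CD64 and responds to interferon, had 483 CPM in interferon-high and 242 in remaining Fcmr+/+ TMPs, and 936 and 372 in Fcmr-/- TMPs. The complement gene C1qa had 1610.5 CPM in interferon-high and 2282 in remaining Fcmr+/+ TMPs, and 1452 and 2306 in Fcmr-/- TMPs. The 9 macrophage markers had medians of -0.34 and -0.13, and together 8527 and 8412 CPM in interferon-high against 10484 and 10120.2 in remaining TMPs. Ly6c2, the marker of classical monocytes, had 90.9 CPM in interferon-high and 29.0 in remaining Fcmr+/+ TMPs, and 406 and 95.5 in Fcmr-/- TMPs, and Plac8 had 556 CPM in interferon-high and 123 in remaining Fcmr+/+ TMPs, and 829 and 209 in Fcmr-/- TMPs. The other 4 measured monocyte markers, among them Ccr2 at 0.22 and 0.46 and F13a1 at -0.46 and -0.27, were under a 2-fold difference. Over 6 measured markers the medians were 0.70 and 0.91, and 0.14 and 0.31 after weighting by UMI class. With the top 2% of cells they were 0.098 and 1.26, so the Fcmr+/+ median went down and the Fcmr-/- one up. Fcmr itself had no UMI in interferon-high TMPs of either genotype and 0.0564 and 0.0501 CPM in remaining ones, too few to check the genotypes.

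Genes of scavenging and tissue functions had medians under that of all genes in both genotypes. Mrc1, the mannose receptor, had 565 CPM in interferon-high and 919 in remaining Fcmr+/+ TMPs, and 322 and 639.5 in Fcmr-/- TMPs, and Gas6, the bridge between MerTk and dying cells, had 143 CPM in interferon-high and 267 in remaining Fcmr+/+ TMPs, and 55.7 and 148 in Fcmr-/- TMPs. In that list, 5 of 23 and 6 of 21 genes had ratios above 0, where all genes had 33.7% and 35.2%, 2 in each genotype were 2-fold lower (Cd163 and Lyve1 in Fcmr+/+, Gas6 and Lpl in Fcmr-/-), and the medians were -0.46 and -0.22 against -0.15 and -0.14 for all genes. With weighting by UMI class they were -0.38 and -0.35, and as a mean over cells -0.52 and -0.35. The 1 gene 2-fold higher in it was Nos2, which encodes inducible nitric oxide synthase, at 40.5 CPM in interferon-high and 7.59 in remaining Fcmr+/+ TMPs, and 193 and 34.2 in Fcmr-/- TMPs. Hypoxia and glycolysis genes had medians of 0.5 and 0.52, and of 0.40 and 0.35 with weighting by UMI class. In that list, 4 of 18 and 4 of 18 genes were 2-fold higher, where 3.82% and 4.56% of all genes were. Adm, which encodes adrenomedullin, led the list with ratios of 1.69 and 1.70, and Slc2a1, the glucose transporter, had 1.19 and 0.89.

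Markers of other cell types were low. Siglech, the defining marker of plasmacytoid dendritic cells, which the MerTk+ CD64+ sort would remove, had 0 and 0.205 CPM in interferon-high Fcmr+/+ and Fcmr-/- TMPs, and of 6 such markers only Tcf4, which phagocytes also express, exceeded 3 CPM, with 133 and 135. The 8 dendritic cell markers summed to 20.8 and 15.8 CPM in interferon-high and 8.01 and 13.7 in remaining TMPs, with Cd209a the most counted and Xcr1 at 0 in the interferon-high TMPs of both genotypes. The 7 T and NK cell markers summed to 18.5 CPM in interferon-high and 0.435 in remaining Fcmr+/+ TMPs, and 2.66 and 15.2 in Fcmr-/- TMPs, with Nkg7 the most counted in interferon-high TMPs. Of the 78 such UMIs in Fcmr+/+ interferon-high TMPs, 75 lay in 1 cell, and of 1818 in remaining Fcmr-/- TMPs, 1684 lay in 23 cells. The groups thus differed through few cells, and without cells of 10 or more such UMIs the antiviral medians were 1.85 and 1.86. The 5 melanoma markers summed to 64.1 CPM in interferon-high and 39.4 in remaining Fcmr+/+ TMPs, and 71.0 and 63.3 in Fcmr-/- TMPs, and their part in the results was not tested. The most counted melanoma marker was Dct or Pmel. Neutrophil markers summed to 21.1 CPM in interferon-high and 31.5 in remaining Fcmr+/+ TMPs, and 50.8 and 47.5 in Fcmr-/- TMPs, with Csf3r the most counted and Ly6g at 0 in interferon-high TMPs. B cell markers summed to 8.52 and 12.5, and 4.30 and 10.7, with Cd79b the most counted. Stromal and vessel markers summed to 6.63 and 4.45, and 12.1 and 5.48, with Pecam1 the most counted and Dcn at 0 in interferon-high TMPs. All these sums were small beside the 8527 and 8412 CPM of the macrophage markers.

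Over the whole ranking of TMPs, the antiviral list was graded while Ifnb1 was concentrated at the top. In the first 1% of all pooled cells, the antiviral list summed to 17951 CPM in Fcmr+/+ and 32391 in Fcmr-/-, and in the next 1% to 18287 and 23947. It summed to 11470.1 and 16678 in the class from 5% to 10%, just outside the selection, and to 5923 and 6566 in the lower 50%. Ifnb1 had 491, 263 and 209.6 CPM in the 3 classes inside the selection and 24.6 just outside in Fcmr+/+, and 307, 96.0, 26.2 and 7.05 in Fcmr-/-. From one side of the limit to the other, Irf7 went from 257 to 217 CPM in Fcmr+/+ and from 460.3 to 329 in Fcmr-/-. Class II genes were not highest at the top: H2-Aa had 751 CPM in the first 1% and 1904 in the second of Fcmr+/+ cells, and 1503 and 1772 in Fcmr-/-. Cxcl9 in Fcmr-/- had 97.3 CPM in the first 1% and 318 in the class from 10% to 25%. Cells of the top class had the fewest UMIs, with medians of 8064 and 7341.

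**Figure D4:**
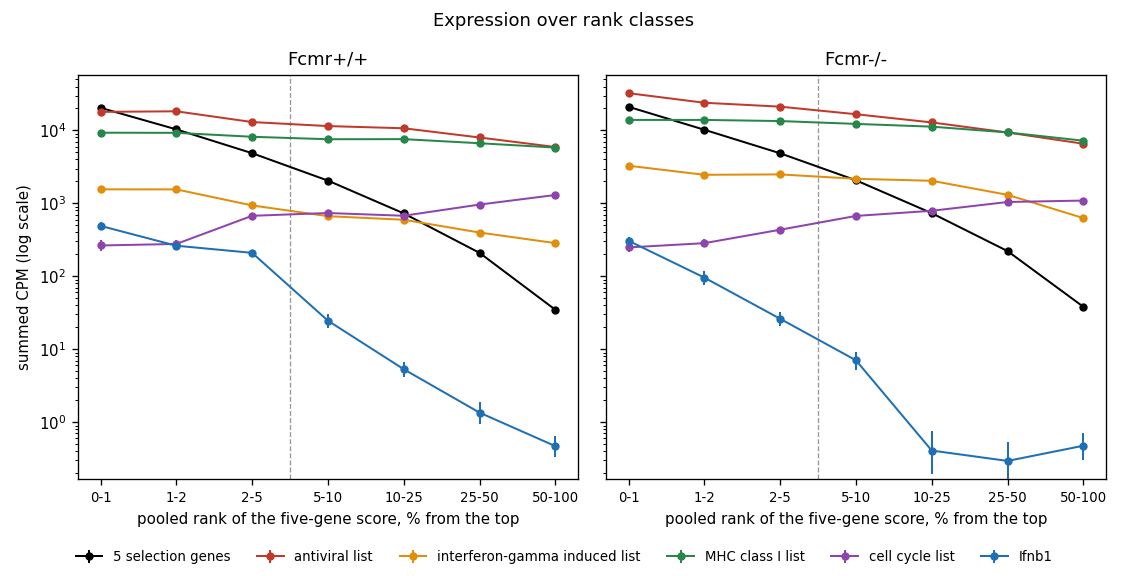
Summed CPM (log scale) of the selection genes, 4 gene lists and Ifnb1 in 7 classes of the pooled rank, by genotype, with 95% Poisson intervals and a dashed line at the limit of the selection. The antiviral list lies between 18287 CPM (second class) and 5923 (last) in Fcmr+/+ and between 32391 (first) and 6566 (last) in Fcmr-/-, Ifnb1 goes from 491 to 0.470 CPM in Fcmr+/+ and from 307 to 0.475 in Fcmr-/-, and the cell cycle list is higher on the right.

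Ifnb1 UMIs were found in a minority of the interferon-high TMPs, and a cell without a UMI may still hold the transcript. Cells with at least 1 Ifnb1 UMI numbered 78 of 272 in Fcmr+/+, 28.7% (interval 23.4 to 34.4), and 47 of 446 in Fcmr-/-, 10.5% (interval 7.85 to 13.8). Among remaining TMPs the shares were 1.61% and 0.556%, although those cells were deeper, with medians of 18164 and 13202 UMIs against 12111 and 8658. The share that free RNA gives was not measured here. Thinned to 6403 UMIs, the shares were 22.8% and 8.99% of interferon-high and 0.632% and 0.272% of remaining TMPs. A few cells held much of the transcript: 46 Fcmr+/+ and 19 Fcmr-/- interferon-high TMPs had 5 or more UMIs, the highest had 107 and 64, and the 10 highest held 46.3% and 67.1% of the Ifnb1 UMIs of their group.

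Within interferon-high TMPs, cells with an Ifnb1 UMI had lower antiviral list levels than cells without one. The medians of the five-gene score were 70.3 and 64.2 per 10000 in Fcmr+/+ with and without Ifnb1, and 92.3 and 60.5 in Fcmr-/-, a description since these genes made the selection. The antiviral list holds none of the 5 selection genes. It summed to 9426 CPM with and 17433 without Ifnb1 in Fcmr+/+, and to 15175 and 24422 in Fcmr-/-. Its median log2 ratio of cells with to cells without Ifnb1 was -1.11 in Fcmr+/+, with 39 of 67 genes 2-fold lower. In Fcmr-/- it was -0.76, with 15 of 70. The list and the selection genes both respond to interferon, and whether the selection shaped this contrast was not tested. Over all genes, 2.35% were 2-fold lower and 1.48% higher in Fcmr+/+, 3.33% lower and 4.11% higher in Fcmr-/-, and the medians were 0.032 and 0.011. Irf7 had 121 CPM with and 386 without Ifnb1 in Fcmr+/+, and 313 and 554 in Fcmr-/-. Ifit1 went the other way, with 2368 and 1268 CPM in Fcmr+/+ and 2487 and 849.6 in Fcmr-/-, as did Cxcl10, with 2171 and 1342, and 3375 and 1809. Cells with Ifnb1 were deeper, with median UMIs of 15886 against 10663 in Fcmr+/+ and 10209 against 8490 in Fcmr-/-. Markers of other cell types differed too. The T and NK cell list summed to 52.0 CPM with and 1.08 without Ifnb1 in Fcmr+/+ and 9.10 and 1.84 in Fcmr-/-. In Fcmr+/+, 1 cell held 75 of the 78 T and NK UMIs of interferon-high TMPs, and in cells with at least 5 Ifnb1 UMIs the list was at 0 in both genotypes. The dendritic cell list summed to 50.6 and 5.39, and 10.9 and 16.4, and to 16.3 and 10.4 CPM in cells with at least 5 Ifnb1 UMIs. In cells with at least 5 Ifnb1 UMIs against those with none, the antiviral medians were -1.26 and -1.0.

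The genes highest in cells with Ifnb1 included Tnf, Ccl3, Ccl4 and Ccl5, while most measured cytokine and chemokine genes were within a 2-fold difference. The cytokine list had medians of -0.30 and -0.17, with 1 of 15 genes 2-fold higher and 1 lower in Fcmr+/+ and 3 of 17 higher and 4 lower in Fcmr-/-. The chemokine list had medians of 0.16 and -0.16, with 4 and 3 of 17 genes higher and 0 and 1 lower. Tnf, the cytokine tumor necrosis factor, had 1052 CPM with and 293 without Ifnb1 in Fcmr+/+, and 692 and 179 in Fcmr-/-. Ccl4 had 11509 and 2966 CPM, and 13999 and 2331. Ccl5 had 931 and 231, and 701 and 280.4. Ppp1r15a, which restarts translation after stress, had log2 ratios of 1.92 and 2.45, and Otud1, a deubiquitinase, 1.57 and 3.17. Cx3cr1, the fractalkine receptor, ranked first among genes measured in both genotypes, by the ratio nearer to 0, with 2.71 and 4.02, but 1 cell held 43.0% and 50.3% of its UMIs in cells with Ifnb1. Tnfsf15, Plagl1, Ccl3, Slpi, AW011738 and F630028O10Rik completed the 12 highest in both genotypes.

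Monocyte markers were lower in cells with Ifnb1: 4 of 6 measured were 2-fold lower in Fcmr+/+ and 5 of 6 in Fcmr-/-, none was 2-fold higher, and the medians were -1.67 and -1.27. Ly6c2 had 11.1 CPM with and 132 without Ifnb1 in Fcmr+/+, and 40.1 and 452 in Fcmr-/-. Ms4a4c, a membrane protein of the antiviral list, had 106 and 450.3, and 271 and 878, and Ly6a had log2 ratios of -2.51 and -1.93. Retnla had 0.693 CPM (interval 0.0175 to 3.86) with and 386 without Ifnb1 in Fcmr+/+, too low with Ifnb1 for an exact ratio. In Fcmr-/- it had 7.28 and 40.1, a log2 ratio of -2.31. A single cell held 60.5% and 56.2% of the Retnla UMIs of all interferon-high TMPs of each genotype. Cell cycle genes, low in interferon-high TMPs as a whole, summed to 838 CPM with and 391 without Ifnb1 in Fcmr+/+, and to 497 and 364 in Fcmr-/-. Of those measured, 9 of 13 were 2-fold higher in Fcmr+/+ and 3 of 8 in Fcmr-/-. A gene can pass the limit of 20 CPM through cells with Ifnb1 alone, so these counts lean to higher genes. With at least 5 Ifnb1 UMIs, 10 of 14 and 5 of 10 were 2-fold higher and 0 and 2 lower. Mki67 had log2 ratios of 1.40 and -0.61. In cluster 3 of the clustering described further on, depth was close, at 9413 and 8992 UMIs in Fcmr+/+ and 7056 and 7008 in Fcmr-/-, and there the antiviral medians were -0.93 over 37 against 93 cells and -0.70 over 23 against 116. There the monocyte medians were -0.49 and -0.59, less than a 2-fold difference, and those of MHC class II, on opposite sides of 0, were 0.26 and -1.05. Of the cell cycle list, only 4 genes in Fcmr+/+ and 1 in Fcmr-/- were measured there. Its sums were 347 CPM with and 208 without Ifnb1 in Fcmr+/+, and 211 and 191 in Fcmr-/-.

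**Figure D5:**
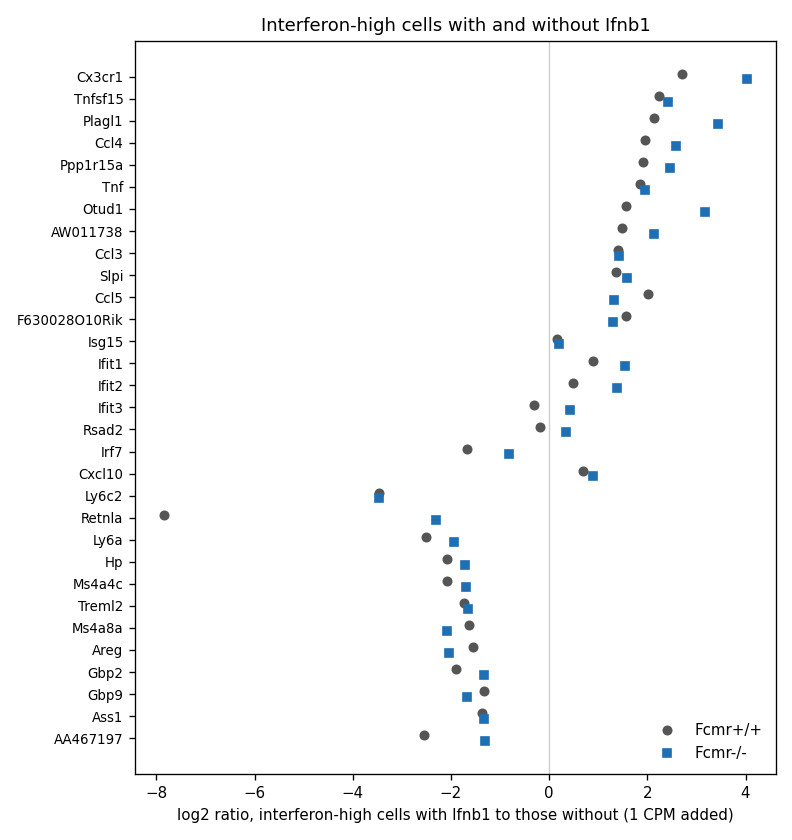
Log2 ratio (1 CPM added) of interferon-high TMPs with an Ifnb1 UMI to those without, by genotype, for the 12 highest and 12 lowest genes in both genotypes, the 5 selection genes, Irf7 and Cxcl10. Tnf lies at 1.84 and 1.94, Irf7 at -1.67 and -0.82, and the selection genes between -0.31 and 1.55.

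Interferon-high TMPs were spread over several groups of TMPs. TMPs of both libraries were clustered without the genes of the interferon lists, which gave 10 clusters, named here by number and by the genes that lead them among remaining TMPs. Every cluster held interferon-high TMPs, and 4 clusters in each genotype held at least 5% of them. Cluster 3, led by Hbb-bs, Hba-a1, Nos2, Inhba and Hspb1, held 130 of 769 Fcmr+/+ cells that were interferon-high and 139 of 934 Fcmr-/- cells, or 47.8% and 31.2% of all interferon-high TMPs. Hbb-bs and Hba-a1 encode hemoglobin chains of red blood cells, and their part was not tested. Cells of that cluster had medians of 10072 and 7664 UMIs, below those of the libraries. Cluster 5, led by Ly6c2, Upp1, Irg1, Gbp4 and Ifi205, held 215 of 1481 Fcmr-/- cells, 48.2% of the interferon-high TMPs of that genotype, and 17 of 64 Fcmr+/+ cells. That cluster was almost all from the Fcmr-/- library, and genotype and library cannot be told apart. Cluster 1, led by Ccl17, Il1r2, Ifitm1, Ear2 and Ltc4s, held 66 of 1283 and 36 of 895. In cluster 4, led by Cenpf, Nusap1, Prc1, Pbk and Ccna2, interferon-high TMPs were 9 of 775 and 7 of 794. Ifi205 of the antiviral list and Gbp4 of the interferon-gamma list lead cluster 5 although neither entered the clustering. With all variable genes, interferon genes included, 1 cluster held 79.4% of the Fcmr-/- and 50.7% of the Fcmr+/+ interferon-high TMPs, so their spread over clusters depends on the genes used.

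Within clusters, the antiviral list remained higher in interferon-high TMPs than in remaining TMPs of the same cluster and genotype. Its median log2 ratio ran from 1.2 in cluster 2 to 1.84 in cluster 3 among the 5 clusters with at least 10 interferon-high Fcmr+/+ TMPs. In Fcmr-/- it ran from 1.29 in cluster 1 to 1.76 in cluster 3 among 4. Here too a gene can pass the limit of 20 CPM through interferon-high TMPs alone. Irf7 was less even in Fcmr+/+, with ratios of 0.42 in cluster 2 and 0.35 in cluster 10. In clusters 1, 3 and 5 of Fcmr+/+ it had 1.60 to 1.78, and in Fcmr-/- 1.36 to 1.84. Ifnb1 was unevenly spread. It had 406 CPM in interferon-high TMPs of cluster 3 and 567 in the 13 of cluster 2 in Fcmr+/+, and 243 in cluster 3 and 8.91 in cluster 5 in Fcmr-/-. Cluster 5 held 215 Fcmr-/- interferon-high TMPs, of which 8 had an Ifnb1 UMI.

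Interferon-high TMPs of the 2 libraries were compared last. Of 5232 measured genes, 89 were at least 2-fold higher (1.7%) and 47 lower (0.898%) in Fcmr-/- than in Fcmr+/+ interferon-high TMPs, and no spread between mice is known for any of them. Different clusters held the largest share of each group: cluster 5 held 48.2% of Fcmr-/- and 6.25% of Fcmr+/+ interferon-high TMPs, and cluster 3 held 31.2% and 47.8%. The 8 highest were Ly6a, Mmp8, Cxcl9, Nos2, Ly6c2, Irg1, Il18bp and C3. Of these, Ly6a, Ly6c2, Irg1, Il18bp and C3 are among the 10 genes that lead cluster 5 and Nos2 among those of cluster 3. Cxcl9 and again Ly6a are among those of cluster 7, and Mmp8 among those of cluster 8. Ly6a, a surface protein of the antiviral list, had 148 CPM (interval 137 to 160.0) in Fcmr+/+ and 836 CPM (interval 810.1 to 862) in Fcmr-/- interferon-high TMPs, a log2 ratio of 2.49, and the same ratio among remaining TMPs was 3.52. Nos2 had 40.5 and 193 CPM, and Irg1, which makes the antimicrobial itaconate, 73.8 and 327. Their ratios were 2.23 and 2.13 among interferon-high and 2.03 and 1.80 among remaining TMPs. For all 8, remaining TMPs were also higher in Fcmr-/-, by log2 ratios of 1.5 (Mmp8) to 3.65 (Cxcl9). The 8 lowest were Retnla, Hist1h1c, Cirbp, Mt2, Lyz1, Ifnb1, Fcrls and Erdr1. Ifnb1 had a ratio of -1.65 among interferon-high and -0.66 among remaining TMPs, and the linker histone Hist1h1c -2.13 and -0.75.

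The log2 ratio of interferon-high to remaining TMPs itself differed between the genotypes, and the 8 genes with the largest gap in each direction are named here, without a test. The signed ratio was higher in Fcmr+/+ for Retnla, Ccl5, Otud1, Hist1h1c, Gbp2, AW112010, Cxcl9 and Hspb1. The ratio of Ccl5 was 4.61 in Fcmr+/+ and 2.69 in Fcmr-/-, where remaining TMPs had 50.02 CPM against 18.3. AW112010, an interferon-responsive transcript, had 169 CPM in interferon-high and 45.3 in remaining Fcmr+/+ TMPs, and 439.7 and 286 in Fcmr-/- TMPs. For Hspb1, a small heat shock protein, 1 cell held 46.4% of the UMIs in Fcmr+/+ interferon-high TMPs. The signed ratio was higher in Fcmr-/- for Ctsk, Dppa3, Nr1h3, Cenpe, Mmp8, Arl5c, Il10 and Cxcl3. Several of these were lower in interferon-high TMPs of Fcmr+/+ and nearer to 0 in Fcmr-/-, such as Dppa3 at -1.40 and -0.23. Cenpe was at -1.82 and -0.84, but 1 cell held 40.3% of its Fcmr-/- interferon-high UMIs, and without the highest cell of each genotype it was at -2.13 and -1.51. Nr1h3, which encodes the sterol sensor LXR-alpha, had 14.2 CPM in interferon-high and 27.7 in remaining Fcmr+/+ TMPs, and 44.2 and 38.4 in Fcmr-/- TMPs. Ctsk, the protease cathepsin K, had 39.5 CPM in interferon-high and 104 in remaining Fcmr+/+ TMPs, and 105 and 87.5 in Fcmr-/- TMPs, with 19.9% of the Fcmr-/- interferon-high UMIs in 1 cell, without which the Fcmr-/- ratio was -0.049.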

How the data were processed

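MerTk+ CD64+ TMPs were sorted from B16 tumors and loaded on a 10x Chromium instrument for 3′ libraries. The authors assembled UMI counts with Cell Ranger on GRCm38 and deposited them unnormalized, as 1 matrix of genes by cells for each library. Depth per library is given at the start. The counts were used as deposited. Where genes shared a symbol, the one with most UMIs kept it. Sums, intervals and ratios were computed with numpy 2.4.6, scipy 1.17.1 and Python 3.11.15, and figures with matplotlib 3.10.9. Clusters were made in Seurat 5.3.0 under R 4.3.3, with the variable genes outside the interferon lists, 10 principal components, 30 neighbors and a resolution of 0.8. At an assumed doublet rate of 6%, Scrublet (scanpy 1.11.5) marked 0 cells of either library as doublets. It was taken not to have worked, and doublets were left in, with an alternative that drops the 5% of cells scored highest. The calculations were tested on simulated data.

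The cells and the gene lists were chosen with earlier results of these data known. Named genes, among those with at least 20 CPM in interferon-high or remaining TMPs of both genotypes, are the 15 highest and 10 lowest by the ratio nearer to 0 of the genotypes, the 8 with the largest gap between genotypes in each direction, the 8 highest and 8 lowest between interferon-high TMPs of the genotypes, the 5 selection genes, Fcmr, Mertk, Fcgr1 and members of the lists. Some genes of these sets are not reported here. Genes named for the split by Ifnb1 were chosen after their values were seen. Alternatives covered the share of cells selected, the genes and depth behind the score, the limits on cells, the pseudocount, the filter, scaling, weighting and the clustering.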

Additional observations from a re-analysis of the deposited data

Results flagged for a closer look

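For 5 named genes, the interferon-high TMPs lay above the remaining TMPs in 1 genotype and below them in the other, with counting intervals apart in both. No test of the difference was possible with 1 library per genotype, and the difference was not tested. Ctsk had log2 ratios of -1.37 in Fcmr+/+ and 0.26 in Fcmr-/-, where 1 cell held 19.9% of its UMIs and the ratio without that cell was -0.049, below 0 as in Fcmr+/+. The chemokine Cxcl3 had -0.58 and 0.35, and Cxcl9 had 1.07 and -0.12. The neutrophil collagenase Mmp8 had -0.45 and 0.52, and Erdr1 had 0.44 and -0.41. In Fcmr+/+ interferon-high TMPs, 1 cell held 30.5% of the Cxcl9 UMIs, and the ratio without it was 0.57. Without Isg15 in the score, Cxcl9 was below 0 in both genotypes, at -0.079 and -0.49, and with weighting by UMI class it was above 0 in both, at 1.17 and 0.20.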

How the results depend on the processing

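Values are given for Fcmr+/+ and then Fcmr-/-. No paired analysis was possible because each genotype had 1 library. Taking the top 2% instead of the top 5% gave shares of 1.76 and 2.19%, 320 and 365 genes higher, 380 and 344 lower and antiviral medians of 2.19 and 2.18. The top 10% gave 7.48 and 12%, 141 and 142 higher, 21 and 13 lower and 1.66 and 1.57. The number of genes 2-fold lower was the least stable result: it was 17 and 22 with at least 50 CPM, 245 and 341 without a filter (with 384 and 361 higher), 100 and 104 as a mean over cells, 25 and 25 with UMI classes weighted and 128 and 97 without cells that hold Ifnb1. In Fcmr-/- it was 49 without Isg15 in the score and 49 with thinned cells. The antiviral medians were 2.11 and 1.89 without cells that hold Ifnb1, 1.92 and 1.97 with cells of up to 5000 genes, 1.97 and 1.98 when the median ratio was set to 0 and 1.99 and 1.99 as a mean over cells, and were above 1.5 under every alternative run. The largest share of Fcmr-/- interferon-high TMPs in 1 cluster was 48.2%, 57.2% at a resolution of 0.4 and 79.4% with all variable genes. Ratios of Ifnb1 without cells that hold it were -1.52 and -0.86 by construction, and that of Cxcl9 in Fcmr+/+ was -0.079 without Isg15 in the score. Of 75 ratios of named genes past 2-fold, 62 to 75 kept their direction and size under each alternative. Without the cell with most UMIs of the gene, chosen after seeing the data, 71 did, and Retnla, Cxcl9 and C3 in Fcmr+/+ and Hspb1 in Fcmr-/- did not, at 0.57, 0.57, 0.93 and 0.89. The chemokine median in Fcmr+/+, near 0, was 0.023 after scaling and 0.03 with the top 10%. The cause was not tested. Removing the cells with the highest Scrublet scores, the top 5% within each library, and a pseudocount of 0.1 CPM left these counts within 1.5 times the reported ones.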

Other observations

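Immediate early and stress genes, which tissue digestion can induce, had medians of 0.35 in Fcmr+/+ and 0.35 in Fcmr-/-. In Fcmr+/+ the median was 0.26 with weighting by UMI class and 0.19 without cells that hold Ifnb1. Of the list, 1 of 18 and 0 of 18 genes were 2-fold higher, where 3.82% and 4.56% of all genes were. The gene 2-fold higher in Fcmr+/+ was Klf2, a transcription factor that restrains inflammation. It had 584 CPM in interferon-high and 259.7 in remaining Fcmr+/+ TMPs, and 222 and 176 in Fcmr-/- TMPs. Egr1 had ratios of 0.39 and 0.84, and Jun 0.54 and 0.11. No Y-linked transcript of 4 looked up was found in interferon-high TMPs of either library, and Xist, made from the inactive X chromosome of females, had 1118 CPM in interferon-high and 916 in remaining Fcmr+/+ TMPs, and 975 and 924 in Fcmr-/- TMPs. Retnla, which encodes a protein of alternatively activated macrophages, had 254 CPM in interferon-high and 67.9 in remaining Fcmr+/+ TMPs, and 36.4 and 38.1 in Fcmr-/- TMPs, with 60.5% and 56.2% of the interferon-high UMIs in 1 cell of each library.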
